A study of Peromyscus maniculatus with 6 samples.

Results

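The 9 genes described here, Scara3, Bloc1s1, St3gal5, Hgsnat, Pdk2, Pmp22, Ergic3, Galnt10 and Tapbp, are reported in mouse or human cells as substrates of regulated IRE1-dependent decay (RIDD). They were found by symbol in the deposited gene table, which holds 24281 genes, and each symbol sat on 1 gene. All 9 passed the filter on low counts, which left 13503 genes for testing. They were compared between tunicamycin and control libraries of primary ear punch fibroblasts from 3 deer mice of the BW stock (Peromyscus maniculatus), 4 weeks old. The animals were BW35770, BW35772 and BW35773, and cells of each were sequenced as 1 control and 1 tunicamycin library, so that 3 libraries stood against 3. Tunicamycin, which blocks N-linked glycosylation in the endoplasmic reticulum (ER), was given for 5 h. The label states 5 mg per mL, a concentration that was not checked here, and the sources used here name no vehicle for the controls. The cells were passaged bulk cultures of animals for which the labels name no engineered allele, and fewer cells of a type and less RNA per cell cannot be told apart in them.

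IRE1, encoded by Ern1, is an ER membrane protein with a kinase and a ribonuclease domain. When misfolded proteins accumulate it clusters, and its ribonuclease removes an intron from Xbp1 mRNA, which then encodes an active transcription factor. The same ribonuclease cuts a range of other mRNAs, mostly those translated at the ER membrane, and the fragments are removed by exonucleases. In mouse fibroblasts Bloc1s1 is the usual readout of this decay. A level of mRNA in RNA-seq reflects synthesis and decay together, and cleavage itself was not measured.

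Libraries held 37852385 to 49352126 counts on genes. The fibroblast markers Vim and Col1a2 were high in each. Vim was at 7494 to 9763 CPM (counts scaled to library size, with TMM factors, the trimmed mean of M values). Col1a2 was at 1792 to 2979 CPM. Other fibroblast markers were lower or differed between animals. Lum was at 81.7 to 175.0 CPM. Thy1 was at 751.8 and 827.3 CPM in BW35770 and at 58.05 to 118.0 CPM in BW35772 and BW35773. Summed over 6 cartilage markers, libraries of animal BW35770 held 1867 and 2073 CPM and the other 4 libraries 6125 to 8877 CPM. Most of this was Col2a1 and Acan, while Matn1 was at most 0.045 CPM. Skeletal muscle markers summed to 14.9 to 23.5 CPM, nearly all of it Acta1. Melanocyte markers summed to at most 0.325 CPM and keratinocyte markers to at most 23.1 CPM. Endothelial markers summed to at most 4.68 CPM, mostly Pecam1, with Tie1 at 0 counts in each library. The 5 immune markers summed to 69.1 to 175.5 CPM, nearly all of it Cd68, which is a lysosomal protein of macrophages and is also made by fibroblasts, while Ptprc was at most 0.025 CPM and Cd3e at 0 counts in each library. The 9 substrates had 653 to 18984 counts per library, so that the counting error was at most 3.91% of a value.

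After tunicamycin 1 of the 9 substrates had fallen, Scara3, and 0 had risen. A gene is called here when its adjusted p lies under 0.05 (edgeR quasi-likelihood test, Benjamini-Hochberg adjustment over all tested genes). Of all tested genes 0.792% were called lower and 1.78% higher. In the fit with a replicate block, which pairs the libraries of each animal, 2 substrates had fallen, Scara3 and St3gal5, and 0 had risen. In that fit 2.4% of all tested genes were called lower and 3.07% higher. The count of substrates that rose was also 0 at an unadjusted p under 0.05, in DESeq2 and in limma-voom. Of all tested genes 1199 of 13503, 608 of 12448 and 218 of 13503 rose by these measures. The log2 fold changes of the 9 genes ran from -2.39 to -0.01 with a median of -0.20, against -0.01 over all tested genes. All 9 values were below 0, as were 51.5% of those of all tested genes. The signs of Pdk2 and Galnt10 turned in some fits without 1 library.

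**Figure D1:**
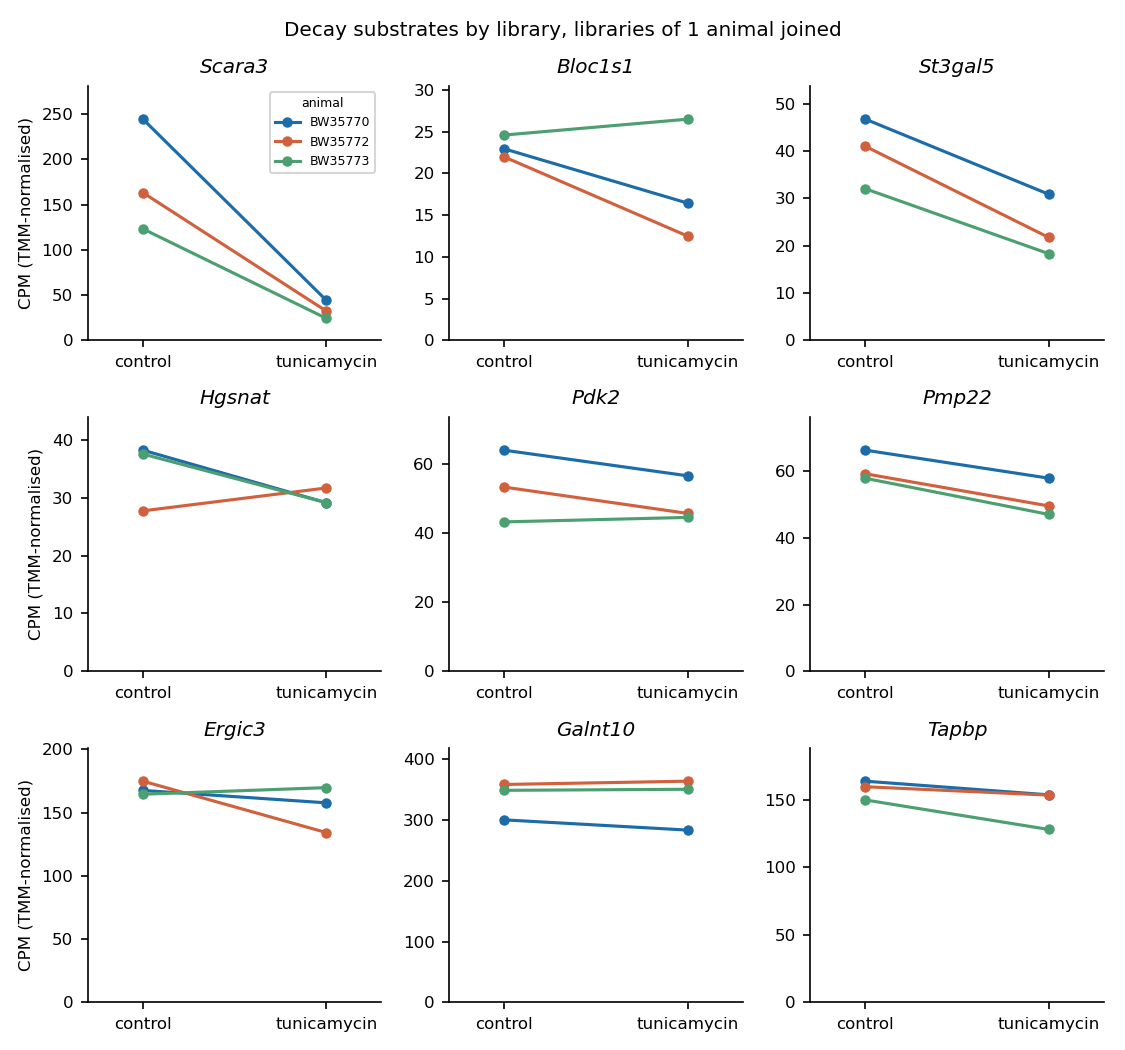
CPM of each decay substrate in the 6 libraries, control at left and tunicamycin at right in each panel, with a line joining the libraries of 1 animal and each vertical axis starting at 0. Scara3 and St3gal5 are lower with tunicamycin without overlap, and the lines of Bloc1s1 run down in animals BW35770 and BW35772 and up in BW35773.

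Among substrates that encode cell surface and other membrane proteins, Scara3 changed most. Scara3 is a class A scavenger receptor protein that is induced by oxidative stress and limits damage by reactive oxygen species. It stood at 244.4, 163.2 and 123.2 CPM in the controls of animals BW35770, BW35772 and BW35773, and at 44.3, 32.4 and 24.4 CPM with tunicamycin. Every treated library lay far below every control, and the animals kept their order, BW35770 highest and BW35773 lowest in both groups. The log2 fold change was -2.39 ± 0.31 (SE, edgeR adjusted p = 0.0114, n = 3 animals), and the treated mean was 19.03% of the control mean. Differences within the pairs, on the log2 CPM scale, were -2.46, -2.33 and -2.34. They thus differed far less between animals than the control levels did, whose SD was 0.50 on the log2 scale. With the block the SE fell to 0.11 and the edgeR adjusted p was 0.000162. Leaving out the BW35772 control, with no block, gave -2.41 and ended the call (edgeR adjusted p = 0.0525). That fit called 15 of 13747 tested genes lower, against 107 of 13503 with all libraries. By size of fall Scara3 ranked number 8 of 13503 tested genes. It lies on scaffold KI615701.1 from base 956688 to 991977 on the plus strand, with 6 exon blocks, and overlaps no other gene of the table.

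The named genes whose 6 values, centred on their mean, lay nearest to those of Scara3 were Id2, Snai1 and Socs3. Their Euclidean distances over the 6 log2 CPM values were 0.54, 0.73 and 0.87, where the median over named genes was 3.12. Id2 is an inhibitor of basic helix-loop-helix factors, Snai1 a transcriptional repressor and Socs3 an inhibitor of cytokine signalling. Their log2 fold changes were -2.21 ± 0.27, -2.08 ± 0.18 and -1.69 ± 0.27 (SE). The 6 values include the treatment difference, so falls in these genes follow from how they were chosen.

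Pmp22 encodes a membrane protein of peripheral myelin that is also made by growth-arrested fibroblasts. It stood at 66.3, 59.2 and 57.9 CPM in controls and 57.9, 49.6 and 47.1 CPM with tunicamycin, in the same order of animals. It was lower in each pair, by 0.20, 0.26 and 0.30 on the log2 CPM scale, but the treated library of BW35770 reached the lowest control. The log2 fold change of -0.25 ± 0.13 was not called (edgeR adjusted p = 0.417, and 0.261 with the block), with a 95% interval from -0.54 to 0.05. Schwann cells are the best known source of this mRNA. The 4 Schwann cell markers summed to 72.1 to 127.4 CPM in controls and 48.2 to 84.5 CPM with tunicamycin, nearly all of it S100b, and the defining marker Sox10 was at most 0.118 CPM in each library. Their part in the value for Pmp22 was not tested.

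Tapbp encodes tapasin, which helps load peptides on MHC class I molecules in the ER. Its levels were 163.6, 159.5 and 149.7 CPM in controls and 153.5, 153.3 and 127.9 CPM with tunicamycin. It too was lower in each pair, with differences of -0.09, -0.06 and -0.23, while the groups overlapped. Its log2 fold change was -0.12 ± 0.12 (edgeR adjusted p = 0.729), with a 95% interval from -0.40 to 0.15.

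Substrates of the secretory pathway differed among themselves. St3gal5 encodes the Golgi enzyme that makes ganglioside GM3 from lactosylceramide. It went from 46.8, 41.0 and 32.1 CPM in controls to 30.9, 21.8 and 18.3 CPM with tunicamycin. The highest treated library lay just below the lowest control, and, as for Scara3, BW35770 was highest and BW35773 lowest in both groups. A log2 fold change of -0.76 ± 0.23 was not called without the block (edgeR adjusted p = 0.159). It was called with the block, at -0.77 ± 0.13 (edgeR adjusted p = 0.0193), and in DESeq2 (adjusted p = 0.0449). Differences within the pairs were -0.60, -0.91 and -0.80. Without animal BW35770 the blocked call was lost (edgeR adjusted p = 0.196), whereas it held without BW35772 (edgeR adjusted p = 0.0109) or BW35773 (0.0224). The treated mean was 59.2% of the control mean. St3gal5 lies on scaffold KI615809.1, bases 100891 to 156748, minus strand.

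Ergic3, a protein that cycles between the ER and the Golgi, and Galnt10, an enzyme that starts O-linked glycans on serine and threonine, are also secretory pathway genes. Ergic3 stood at 167.5, 174.8 and 164.5 CPM in controls and 157.7, 134.2 and 169.7 CPM with tunicamycin, so that BW35772 had the lowest and BW35773 a treated value above its control. Galnt10 stood at 299.8, 357.9 and 348.3 CPM in controls and 283.0, 363.3 and 350.0 CPM with tunicamycin. In Galnt10 the animals differed more than the groups did. Log2 fold changes were -0.13 ± 0.12 for Ergic3 and -0.01 ± 0.14 for Galnt10 (edgeR adjusted p = 0.703 and 0.983). The 95% intervals ran from -0.42 to 0.15 and from -0.34 to 0.32, so that a fall of the size seen in Scara3 lay outside both.

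Of the substrates tied to lysosomes, Bloc1s1 encodes a subunit shared by the complexes BLOC-1 and BORC, which serve lysosome-related organelles and lysosome position. Its levels were 22.9, 22.0 and 24.6 CPM in the controls of BW35770, BW35772 and BW35773, and 16.4, 12.5 and 26.5 CPM with tunicamycin. Controls lay within a narrow range, and 2 of the 3 treated libraries were below it and the third above it. Over all 6 libraries the log2 fold change was -0.33 ± 0.26 (edgeR adjusted p = 0.655), with a 95% interval from -0.94 to 0.29. Differences within the pairs were -0.48, -0.81 and 0.11. Without the treated library of BW35773 the log2 fold change was -0.66 (edgeR adjusted p = 0.0873), and without that of BW35772 it was -0.10.

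Bloc1s1 is the shortest of the 9 genes in the table, with 575 exon bases in 4 blocks (scaffold KI615643.1, bases 82326 to 86548, plus strand). The treated libraries differed from their controls by exon length, in opposite directions between animals. Among the 1068 tested genes of up to 600 exon bases the median within-pair difference was -0.38 in BW35770, -0.59 in BW35772 and 0.22 in BW35773. Among the 1288 genes of over 5000 exon bases it was 0.18, 0.22 and -0.23. The pair differences of Bloc1s1 had the same signs and order as those of short genes. Those of Ergic3, with 1382 exon bases, were -0.09, -0.38 and 0.05. Genes of over 1000 and up to 1500 exon bases had medians of -0.12, -0.18 and 0.09, with the same signs and order. With each library's trend with exon length removed, the log2 fold change of Bloc1s1 was -0.16 ± 0.15 (edgeR adjusted p = 0.684), and that of Scara3, with 3476 exon bases, was -2.45 ± 0.30 (edgeR adjusted p = 0.00658). The named genes nearest to Bloc1s1 by their 6 centred values were Naa38, 2410015M20Rik and Ndufa7, at distances of 0.09, 0.11 and 0.13 where the median was 1.16. They have 598, 789 and 549 exon bases, and were chosen on the same values that give the pair differences. Naa38 belongs to an N-terminal acetyltransferase and Ndufa7 to mitochondrial complex I, and no reason for the trend with length was tested.

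**Figure D2:**
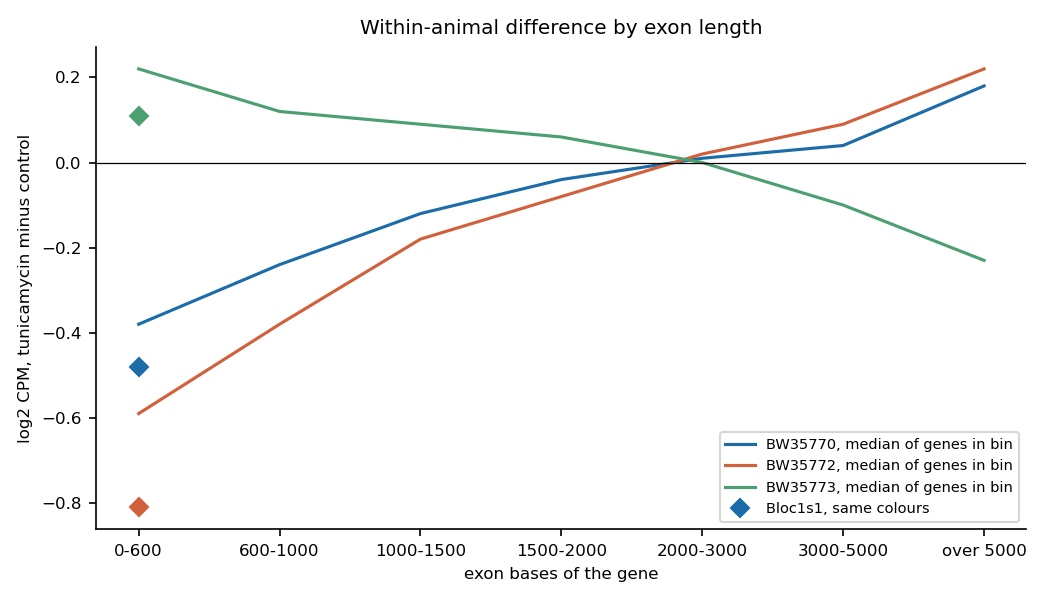
Median within-animal difference in log2 CPM (tunicamycin minus control, vertical axis) of tested genes in 7 bins of exon length (horizontal axis), 1 line per animal, with the values of Bloc1s1 as diamonds in the colours of the animals. Lines for BW35770 and BW35772 rise from -0.38 and -0.59 in the shortest genes, the line for BW35773 falls from 0.22, and the diamonds at -0.48, -0.81 and 0.11 keep that order.

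Hgsnat encodes the lysosomal membrane enzyme that acetylates heparan sulfate during its breakdown. It stood at 38.2, 27.7 and 37.5 CPM in controls and 29.1, 31.7 and 29.1 CPM with tunicamycin. Animal BW35772 had the lowest control and the highest treated value, and the other 2 animals were lower with tunicamycin. For Hgsnat the log2 fold change was -0.20 ± 0.16 (edgeR adjusted p = 0.633), with a 95% interval from -0.56 to 0.16.

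Pdk2 encodes a mitochondrial kinase that switches off pyruvate dehydrogenase. Its levels were 64.0, 53.3 and 43.3 CPM in controls and 56.6, 45.7 and 44.6 CPM with tunicamycin. Controls spread more widely than the treated libraries, and the groups overlapped. For Pdk2 the log2 fold change was -0.13 ± 0.17 (edgeR adjusted p = 0.829), with a 95% interval from -0.54 to 0.28.

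**Figure D3:**
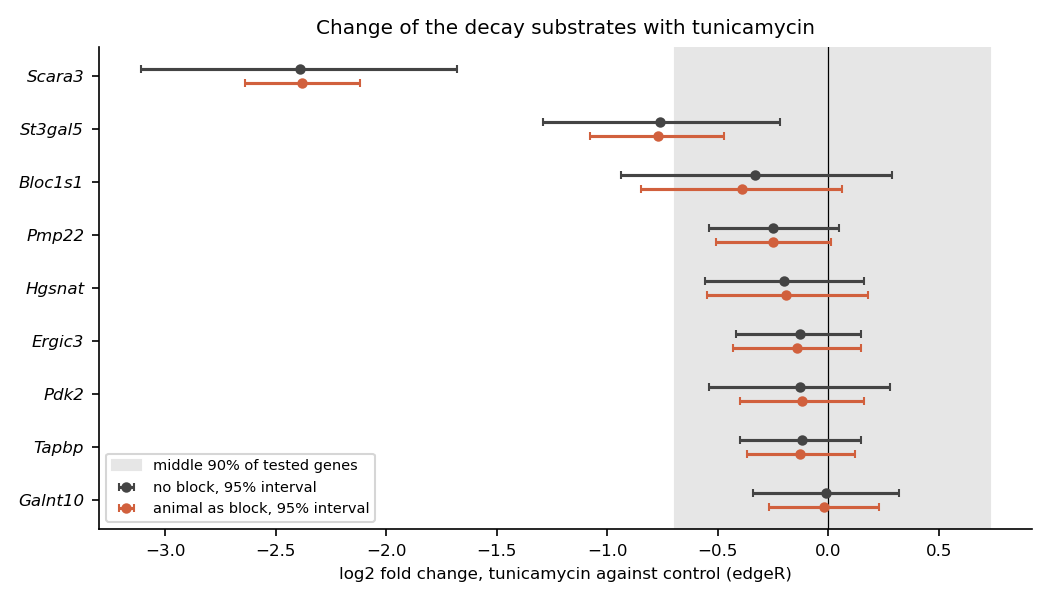
Log2 fold change (tunicamycin against control, horizontal axis) of each substrate with its 95% interval from edgeR, without a block in grey and with the animal as a block in orange, over a band from -0.69 to 0.73 that holds the middle 90% of tested genes. Both intervals lie below 0 for Scara3 and St3gal5, both reach 0 for the other 7 genes, and Scara3 lies far outside the band.

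Across the 9 substrates, Scara3 and St3gal5 were the 2 whose treated libraries all lay below all controls, a pattern found in 9.98% of all tested genes. Scara3, St3gal5, Pmp22 and Tapbp, 4 of 9, were lower in every pair, as were 21.7% of tested genes. In animal BW35770 all 9 substrates had differences below 0, in BW35772 7 and in BW35773 5. Of all tested genes 53.5%, 52.35% and 50.6% had differences below 0 in these animals. The median differences over the 9 genes were -0.20, -0.26 and -0.23 in these animals, and the medians over all tested genes were between -0.03 and 0.

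Levels of different genes were compared as CPM per kilobase of annotated exon. In controls Ergic3 was highest at 122.2 ± 3.84 (SD, n = 3), followed by Tapbp at 108.2 ± 4.90 and Galnt10 at 68.8 ± 6.39. Scara3 came next at 50.9 ± 17.8, then Bloc1s1 at 40.3 ± 2.30, Pmp22 at 32.8 ± 2.43, Pdk2 at 23.3 ± 4.52, Hgsnat at 17.8 ± 3.03 and St3gal5 at 16.3 ± 3.03. The control values of Scara3 overlapped those of Galnt10 and Bloc1s1, and those of Hgsnat overlapped those of Pdk2 and St3gal5, while other neighbours in this order did not overlap. With tunicamycin Scara3 was at 9.69 ± 2.88 CPM per kilobase and St3gal5 at 9.67 ± 2.65, the 2 lowest of the 9.

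**Figure D4:**
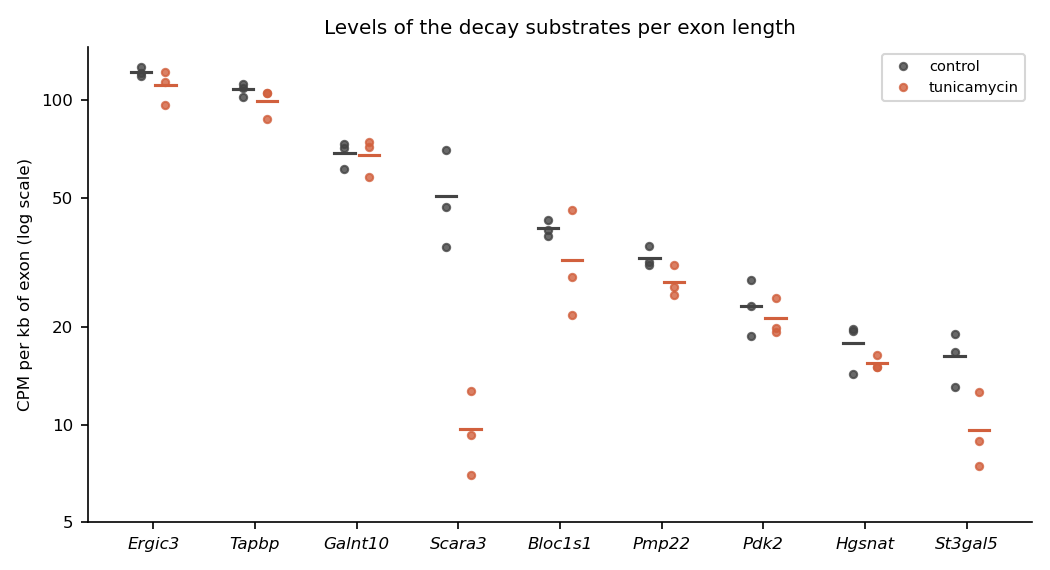
CPM per kilobase of exon (log axis) of the 9 substrates, ordered by control mean, with 1 point per library and a bar at the mean of each group. Scara3 drops from 50.9 to 9.69 and joins St3gal5 at the bottom of the order, and the control and treated values of the other 7 genes overlap.

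Of 12 other genes listed as reported RIDD substrates, 8 were tested, of which 1 rose and 0 fell. With the replicate block 3 rose and 0 fell, DESeq2 called 2 higher and 0 lower, and limma-voom 1 and 0. An unadjusted edgeR p under 0.05 was found for 3 higher and 0 lower. Of all tested genes 3.07% rose with the block, 608 of 12448 in DESeq2 and 218 of 13503 in limma-voom. At an unadjusted edgeR p under 0.05, 1199 of 13503 were higher. Per1, a circadian clock repressor, rose from 16.3 ± 3.15 to 39.1 ± 7.62 CPM (SD), or by 1.26 ± 0.20 on the log2 scale (SE, edgeR adjusted p = 0.0229, blocked 0.00293). Its call was lost in the fits without any 1 of the controls of BW35770, BW35772 and BW35773 or the treated library of BW35770 (edgeR adjusted p = 0.0919, 0.0758, 0.132 and 0.0563, no block). For Ppp1r15b, which directs a phosphatase to eIF2 alpha, the value was 1.45 ± 0.29 (edgeR adjusted p = 0.0514, blocked 0.0348). Its within-pair difference was 2.28 in BW35772 and 0.84 and 1.03 in the others. Cyp1a2 was called with the block but stayed below 1 CPM on average. Sharing of reads with its close copy Cyp1a1 was not tested. The matrix genes Col6a1 and Sparc, both reported substrates in mouse fibroblasts, had log2 fold changes of -0.17 ± 0.33 and -0.22 ± 0.26, and the receptor Pdgfrb of 0.15 ± 0.16, none of them called.

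Genes of IRE1 itself and of its regulation rose in part. Of 13 tested genes of IRE1 signalling and Xbp1 splicing 5 rose and 0 fell, and in DESeq2 5 rose and 1 fell. Ern1 went from 34.4 ± 2.84 to 110.4 ± 27.5 CPM (SD), which is 1.68 ± 0.19 on the log2 scale (SE, edgeR adjusted p = 0.00604). The other 4 were Traf2, an adaptor that binds active IRE1, at 1.07 ± 0.10, the chaperone Hspa5 at 1.47 ± 0.16, and Syvn1 and Sel1l, a ubiquitin ligase and its partner that also degrade IRE1, at 1.19 ± 0.11 and 0.94 ± 0.19. Rtcb, the ligase that joins the cut Xbp1 mRNA, had -0.08 ± 0.13 and was not called. Fam98b and Zbtb8os, also on this list, had -0.61 ± 0.13 and -0.69 ± 0.23 (edgeR adjusted p = 0.0675 and 0.191). At an unadjusted edgeR p under 0.05, 5 genes of the list were higher and 2 lower. Of all tested genes 2095 of 13503 passed that threshold, 1199 of them higher. Between 2 and 4 of the 13 rose in fits without 1 library. Ern1 missed the threshold when the BW35772 or the BW35773 control was left out (edgeR adjusted p = 0.0536 and 0.055), Hspa5 when the BW35773 control was (0.0561), and Sel1l when any 1 of the 6 libraries was (0.0617 to 0.198).

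Among 14 tested targets of the transcription factor XBP1, 6 rose and 0 fell (7 and 0 with the replicate block, which added Arfgap3, a regulator of Golgi vesicles, at an edgeR adjusted p = 0.0441 against 0.14 without it), and all 14 log2 fold changes were above 0, with a median of 0.51. Syvn1 is on both this list and the last. Xbp1 itself was not analysed, and which factor raised these genes was not tested. Dnajb9, a co-chaperone of the ER chaperone BiP, changed most, from 67.4 ± 11.8 to 394.9 ± 14.1 CPM (SD), or by 2.55 ± 0.15 on the log2 scale (SE, edgeR adjusted p = 0.000488). Creld2, Hyou1, Dnajc3 and Sec23b, which serve folding or vesicle transport, rose by 1.01, 0.80, 0.76 and 0.63 on the log2 scale. In fits without 1 library the count was 2 to 5, and Dnajb9 and Syvn1 were called in every setting tried. Of 17 tested genes that remove cleaved or stalled mRNA, 0 rose and 0 fell, with a median of 0.15. The smallest p among them belonged to Pelo, a ribosome rescue factor, at 0.57 ± 0.12 (edgeR adjusted p = 0.0624, blocked 0.0481). DESeq2 called 1 of them higher and limma-voom 0, and 2 were higher and 1 lower at an unadjusted edgeR p under 0.05.

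Relatives and partners of the substrates were mostly not called. Of 5 tested scavenger receptors beside Scara3, 1 fell, Scarf2, from 167.7 ± 13.9 to 66.9 ± 16.8 CPM (SD), at -1.33 ± 0.19 on the log2 scale (SE, edgeR adjusted p = 0.0181). Its call was lost without any 1 of the 3 controls (edgeR adjusted p = 0.0533, 0.114 and 0.108, no block). All 5 had values below 0. Of 8 tested sialyltransferases and ganglioside enzymes beside St3gal5, 0 were called, and St3gal4 fell with the block (-0.67, edgeR adjusted p = 0.0456). The smallest p among them without the block was that of St3gal2, at -0.52 ± 0.17 (edgeR adjusted p = 0.173). Of the 10 partners of Bloc1s1 in BLOC-1 and BORC 0 were called, with log2 fold changes from -0.84 (Borcs7, edgeR adjusted p = 0.168) to 0.43 and a median of 0.02.

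In the family of Pmp22, 0 of 5 were called, and all 5 had values below 0, with Tmem47 at -0.43 ± 0.12 (edgeR adjusted p = 0.127). Emp3 fell with the block (-0.63, edgeR adjusted p = 0.0474). Of 7 genes beside Pdk2 that control or form pyruvate dehydrogenase 1 rose, the phosphatase Pdp1, which counters Pdk2, at 0.90 ± 0.13 (edgeR adjusted p = 0.0181). Its call was lost without any 1 of the 3 controls (edgeR adjusted p = 0.0865, 0.0917 and 0.123, no block). None was called among 9 genes of heparan sulfate breakdown beside Hgsnat, 5 ER-Golgi cycling genes beside Ergic3, 12 genes of O-linked glycosylation beside Galnt10 and 9 of MHC class I peptide loading beside Tapbp. The smallest p-values in these 4 lists belonged to Glb1 (0.19 ± 0.11), Mcfd2 (0.40 ± 0.12), C1galt1c1 (-0.58 ± 0.18) and B2m (-0.39 ± 0.17). Their edgeR adjusted p-values were 0.454, 0.164, 0.175 and 0.332. Of the 7 lists with no gene called, DESeq2 called 1 partner of Bloc1s1 and 1 relative of Pmp22 lower, and limma-voom called 0. DESeq2 called 345 of 12448 genes lower in all. At an unadjusted edgeR p under 0.05, 1 partner of Bloc1s1, 2 relatives of St3gal5, 3 of Pmp22, 1 of Ergic3 and 1 of Galnt10 were lower. Higher at that threshold were 1 partner of Bloc1s1 and 1 relative of Ergic3, and 0 relatives of Hgsnat and Tapbp passed it. Of all tested genes 2095 of 13503 passed it, 1199 of them higher.

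**Figure D5:**
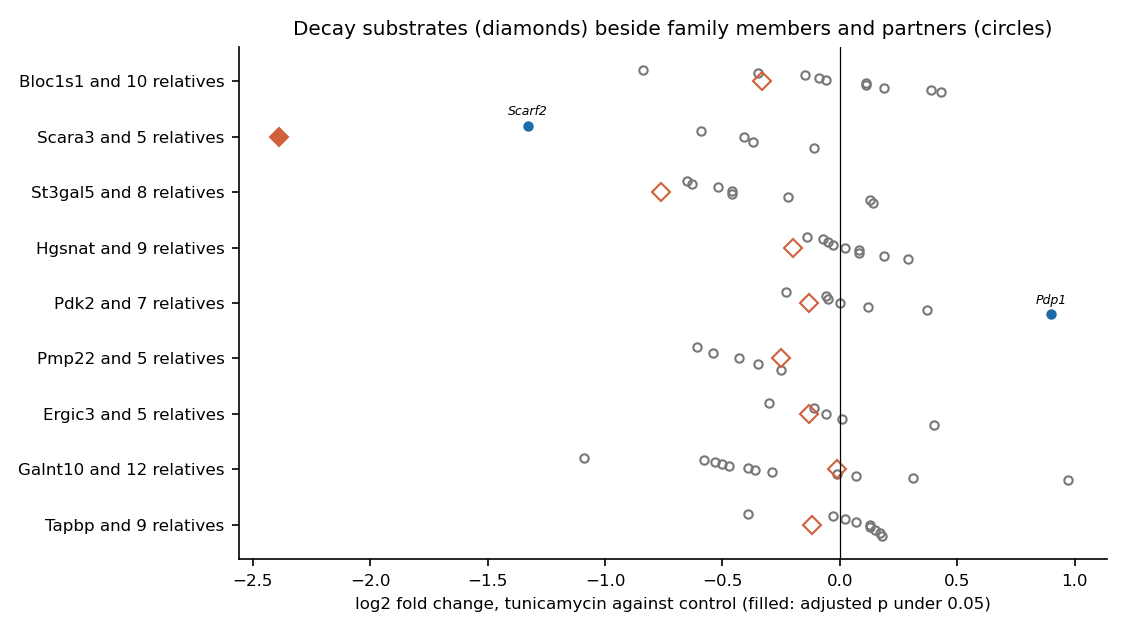
Log2 fold change (tunicamycin against control, horizontal axis) of each substrate (diamond) and of the tested relatives or partners listed for it (circles), 1 row per substrate, filled where the adjusted p without a block lies under 0.05. Scara3 at -2.39, Scarf2 at -1.33 and Pdp1 at 0.90 are the filled symbols.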

How the data were processed

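The authors deposited raw counts per gene in whole numbers, with a column for each library. Per the submitters' processing notes, STAR 2.6.1 was the aligner, with SAMtools 1.6, and featureCounts (Subread) the counter. Libraries were directional, per the labels' protocols. Build, annotation and strand setting: not given in the sources used here. Positions and names are the table's, and the exon length is other information deposited with the counts (per the file headers, Length). Genes in the table number 24281, 6252 of them unnamed, and listed symbols not named there, such as Xbp1, were not analysed here.

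The fit used edgeR 4.0.16 (R 4.3.3), with filterByExpr (minimum count 10, minimum total 15), TMM factors, and the two-sided quasi-likelihood test of 3 tunicamycin against 3 control libraries without a block, adjusted over 13503 genes at 0.05. SE is the fold change divided by the square root of F, and 95% intervals use the test's degrees of freedom. Pair differences use log2 CPM with a prior count of 2. Sample titles name the animal, so libraries pair by animal, and deviations from group means correlated at 0.66, 0.41 and 0.22 within the pairs across genes. Alternatives were other factors, no filter, DESeq2 1.42.0, limma-voom (limma 3.58.1), the replicate block, leaving out libraries or animals, and, chosen after seeing the data, removal of each library's lowess trend with exon length. The steps were tested on simulated data that held no differences between animals, so the pairing of libraries was not tested there. The members and lists were chosen with earlier results of these data known. Named genes are the 9 substrates, in each list those called or else the smallest p, and the 3 nearest genes to Scara3 and Bloc1s1. Other genes, such as Col6a1, Sparc, Pdgfrb, Rtcb, Fam98b, Zbtb8os, Ppp1r15b, Cyp1a2, Arfgap3, Emp3 and St3gal4, were chosen after their values were seen.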

Additional observations from a re-analysis of the deposited data

How the results depend on the processing

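The count of substrates called lower was 1 under other size factors, no filter, limma-voom and removal of the exon-length trend. It was 2 (Scara3 and St3gal5) in DESeq2, with the replicate block, and with the exon-length trend removed together with the replicate block. With a library or an animal left out it was 0 to 2. Of all tested genes 345 of 12448 were called lower in DESeq2 and 324 of 13503 with the replicate block. Removal of the exon-length trend gave 199 of 13503 without the block and 752 of 13503 with it. Without the control of BW35772, 0 substrates were called lower, in a fit that called 15 of 13747 tested genes lower, against 107 of 13503 in the main fit. Over the fits without 1 library, 15 to 251 tested genes were called lower and 46 to 313 higher. The cause was not tested. The count called higher was 0 under every alternative run. Signs turned for Pdk2, from -0.26 to 0.02, and for Galnt10, from -0.09 to 0.09, over fits with a library or animal left out, in which neither was called. Without animal BW35770 the blocked fit called 1 substrate lower and without either of the others 2. Of all tested genes it called 37 of 13526 lower without BW35770, 451 of 13600 without BW35772 and 826 of 13634 without BW35773. The log2 fold change of Bloc1s1 ran from -0.66 to -0.10 over fits with a library or animal left out and was not called in any alternative run. With 3 animals, the 95% intervals given for the uncalled substrates do not exclude falls of the sizes they contain.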
